A study of Homo sapiens with 4 samples.

Results

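The 10 homeobox genes OTX1, OTX2, EMX1, EMX2, EN1, EN2, GBX2, VAX1, BARHL1 and GSC, regulators of the developing brain and head, were examined for the repressive histone mark H3K27me3 in HaCaT cells. Each gene was represented by a fixed window of 43.0 to 58.0 kb in the human genome build hg19, and its members were the called peaks that overlapped that window by at least 1 bp. The 10 windows held 46 of the 8890 peaks called after DMSO and 38 of the 13155 peaks called after AKBA. HaCaT is an established line of immortalised human keratinocytes, here cultured for 12 hours with AKBA or with the solvent DMSO. The labels give AKBA only as an abbreviation, which usually stands for an acetylated boswellic acid of frankincense, and name no dose. The series has 4 samples, a H3K27me3 library and an input library under either condition, and values of the 2 H3K27me3 libraries were used here. Every comparison of AKBA with DMSO below therefore sets 1 library against 1 library, has no replicate check and no p-value. The peak lists hold no read numbers, so depth is unknown, and bases outside a peak may carry the mark below the authors' threshold.

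Homeobox genes encode transcription factors that bind DNA through a homeodomain and give cells their regional identity in the embryo. H3K27me3 is laid down by Polycomb repressive complex 2 and is a known feature of silent developmental regulators, often over broad, CpG-rich stretches around such genes. OTX1 and OTX2 act in the forebrain, midbrain and eye, EMX1 and EMX2 in the dorsal forebrain, and EN1 and EN2 in the midbrain and anterior hindbrain. GBX2 acts in the anterior hindbrain and opposes OTX2 at the boundary of midbrain and hindbrain. VAX1 acts in the ventral forebrain and optic stalk, BARHL1 in inner ear hair cells and in neurons of the cerebellum and diencephalon, and GSC (goosecoid) in the embryonic organiser and the face. Expression was not measured in these samples.

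Promoter sequences of 3 of these genes are given to compare the CpG content of marked and unmarked members. They are the genes with the fewest and the most AKBA bases in their windows, OTX1 and EN2, and OTX2, the paralogue of OTX1. Each run holds 250 bases before to 50 bases after an annotated start, 5′ to 3′ on the gene's own strand, from RefSeq on GRCh38.p14, with every CG dinucleotide in capitals. The coordinates are those of GRCh38.p14 and not of the hg19 peaks: chr2:63050580-63050879 on the plus strand for OTX1, chr7:155457879-155458178 on the plus strand for EN2 and chr14:56810430-56810729 on the minus strand for OTX2. Whether these bases lie inside a peak was not analysed here.
OTX1: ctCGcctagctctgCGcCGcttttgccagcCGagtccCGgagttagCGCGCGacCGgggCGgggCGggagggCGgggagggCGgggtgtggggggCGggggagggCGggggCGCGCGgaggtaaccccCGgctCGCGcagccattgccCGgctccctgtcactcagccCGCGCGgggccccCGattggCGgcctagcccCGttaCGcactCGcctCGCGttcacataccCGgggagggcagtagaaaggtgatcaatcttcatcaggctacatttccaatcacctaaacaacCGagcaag
EN2: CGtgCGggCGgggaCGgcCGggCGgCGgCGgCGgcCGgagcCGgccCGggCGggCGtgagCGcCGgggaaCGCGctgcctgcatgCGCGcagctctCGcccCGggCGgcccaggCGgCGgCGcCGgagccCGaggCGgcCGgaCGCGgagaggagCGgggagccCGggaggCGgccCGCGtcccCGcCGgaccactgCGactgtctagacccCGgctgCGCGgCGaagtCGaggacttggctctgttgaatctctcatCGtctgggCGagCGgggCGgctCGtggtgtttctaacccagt
OTX2: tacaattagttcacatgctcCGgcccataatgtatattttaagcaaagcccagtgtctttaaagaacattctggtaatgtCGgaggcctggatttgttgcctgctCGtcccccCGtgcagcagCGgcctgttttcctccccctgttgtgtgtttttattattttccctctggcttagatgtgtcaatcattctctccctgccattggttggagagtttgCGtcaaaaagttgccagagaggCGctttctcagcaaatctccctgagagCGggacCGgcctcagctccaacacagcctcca
The EN2 promoter held 50 CG dinucleotides, and 1.29% of 35116 RefSeq promoters of the same length held at least as many. The OTX1 promoter held 34 (15.6% of promoters held at least as many) and the printed OTX2 promoter 9 (58.4%). The motif CG reads the same on both strands, 96.0% of all promoters held at least 1, and the median was 14. A second listed start of OTX2 had 6. Of the other genes, VAX1 had 37, GBX2 36, EMX2 and GSC 21 each, and BARHL1 19. Thus 9 promoters of 8 members were matched by symbol. EMX1 and EN1 had no promoter to compare. The OTX1 promoter, with 34, belonged to the window with no peak. The printed OTX2 promoter, with 9, belonged to a window with peaks in both lists. EN2 had both the most CG dinucleotides of the 8 members and the most called bases. With a single unmarked window and promoters not placed against the peaks, a relation of CG number to the mark was not tested.

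In 9 of the 10 windows H3K27me3 was called in both lists, and in the OTX1 window it was called in neither. The 9 marked windows held more called bases after AKBA than after DMSO, although 6 of them held fewer AKBA than DMSO peaks. Called bases in the 10 windows came to 61.2 kb in the DMSO list and 99.9 kb in the AKBA list, or 12.9% and 21.1% of the windows' length, a ratio of 1.63. The same ratio over the whole lists was 1.94. As background, 80.3% of all 50 kb tiles of the genome with peaks of both lists held more AKBA than DMSO bases. At a ratio of at least 1.5 the share of tiles was 57.8%, and 4 of the 9 windows (VAX1, EN2, OTX2 and EMX1) reached it. The median ratio was 1.43 over the 9 windows and 1.69 over the 4288 tiles. The ratio in these windows was thus lower than that of the whole lists by both measures. Among the 231 tiles with at least 5 kb of DMSO bases the median ratio was 1.40, against 1.54 in the 6 windows with as many, and a ratio of at least 1.5 was found in 40.3% of those tiles and in 3 of the 6 windows. More DMSO than AKBA peaks were found in 17.9% of the 4288 tiles. This share was not computed for the tiles with at least 5 kb of DMSO bases.

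**Figure D1:**
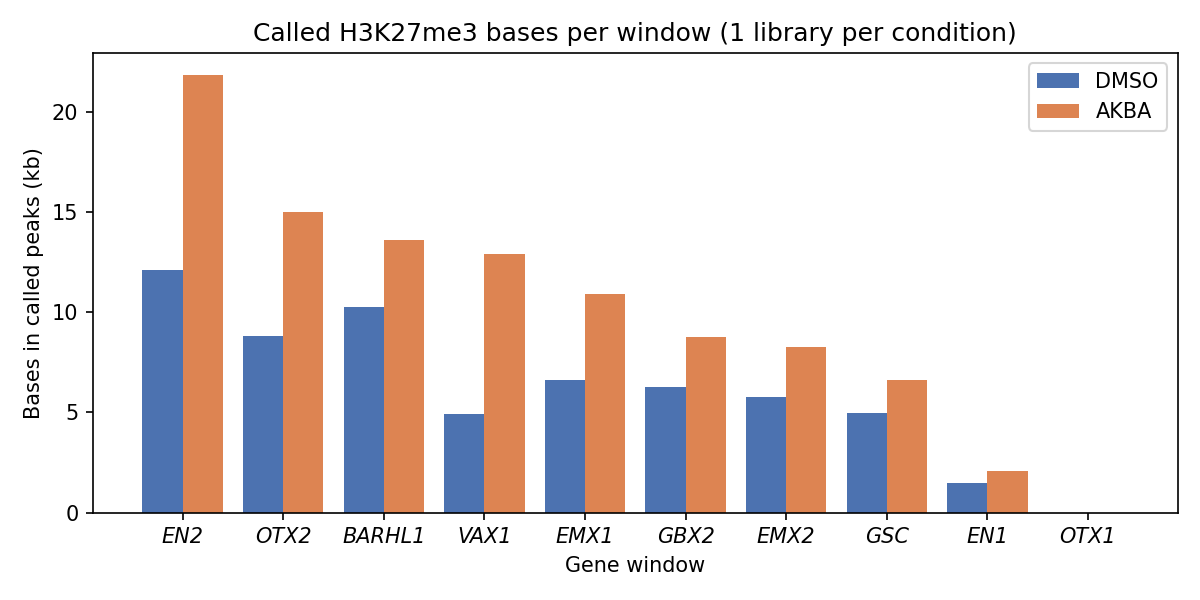
Bases in called H3K27me3 peaks (kb, axis from 0) in each of the 10 gene windows, with 1 bar for the DMSO library and 1 for the AKBA library and no error bars because each condition has 1 library. AKBA bars run from 0 kb at OTX1 and 2.06 kb at EN1 to 21.8 kb at EN2, and each is taller than its DMSO bar except at OTX1, where both are 0.

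**Figure D2:**
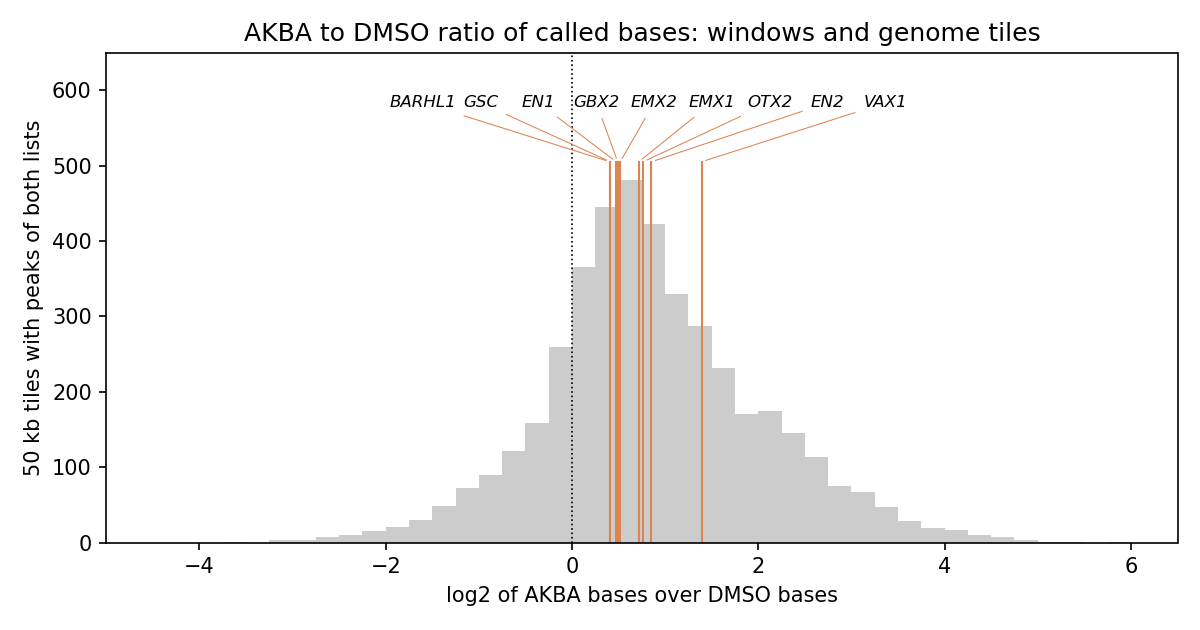
Number of 50 kb genome tiles with peaks of both lists (grey bars) by the log2 of AKBA over DMSO bases, with the 9 marked windows as labelled lines and equality as a dotted line. The windows lie to the right of equality and within the bulk of the tiles, from a ratio of 1.33 at BARHL1 and GSC to 2.62 at VAX1.

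The OTX pair was the only pair of paralogues in which a single member had called peaks. The OTX1 window (chromosome 2, 63258001 to 63305000) had 0 kb in both lists. Its nearest peaks lay 702 kb below in the DMSO list and 845 kb below in the AKBA list, and 1420 kb above in both. The stretch without a peak of either list around OTX1 measured 2.17 Mb, and 206 of the 17085 stretches between peaks (1.21%) were at least as long. Each stretch was counted once whatever its length, and long stretches hold more of the genome than short ones. The 1.21% is therefore not the share of the genome in such stretches, which was not computed. A window without a peak is common in itself, since 85.5% of all 50 kb tiles up to the last peak of each chromosome had none. The files hold no reads, so whether OTX1 chromatin carried the mark below threshold cannot be told.

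The OTX2 window (chromosome 14, 57247001 to 57297000) held 8.84 kb in 7 DMSO peaks and 15.0 kb in 5 AKBA peaks, a ratio of 1.70 that went to 2.75 with peaks scored at least 3 and to 1.03 after merging peaks within 5 kb. Its widest DMSO peak, from 57263151 to 57265497, measured 2347 bp. Its widest AKBA peak, from 57268683 to 57278320, measured 9638 bp, was the 33rd widest of the AKBA list and overlapped 4 separate DMSO peaks. All 7 DMSO and all 5 AKBA peaks of OTX2 overlapped a peak of the other list. OTX2-AS1, a long noncoding RNA gene, neighbours OTX2 in the RefSeq table, and the peaks were not divided between the genes.

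Both EMX windows were marked in both lists, EMX1 more broadly after AKBA. EMX1 (chromosome 2, 73124001 to 73182000) held 6.64 kb in 4 DMSO peaks and 10.9 kb in 4 AKBA peaks. Its AKBA peak from 73140653 to 73148207 measured 7555 bp and overlapped 3 DMSO peaks, whereas the widest DMSO peak, from 73150947 to 73152926, measured 1980 bp. The highest-scoring DMSO peak of the 10 windows was also at EMX1, from 73145038 to 73146208, with an authors' score of 8.79, the 10th highest of its list. It lay wholly inside the 7555 bp AKBA peak.

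EMX2 (chromosome 10, 119282001 to 119329000) held 5.78 kb in 6 DMSO peaks and 8.27 kb in 5 AKBA peaks. Its widest peaks were almost equal, 2561 bp in the DMSO list (119301235 to 119303795) and 2580 bp in the AKBA list (119302781 to 119305360), but they were offset. Of the DMSO bases at EMX2, 63.5% were also AKBA bases, against 90.3% at EMX1. A DMSO peak of 762 bp from 119306353 to 119307114 had no AKBA overlap, and an AKBA peak of 2153 bp from 119291140 to 119293292 had no DMSO overlap. The antisense gene EMX2OS neighbours EMX2, so these peaks were not assigned to either transcript.

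The EN pair held the most and, among marked windows, the fewest called bases. EN2 (chromosome 7, 155231001 to 155278000) held 12.1 kb in 10 DMSO peaks and 21.8 kb in 5 AKBA peaks, a ratio of 1.80 (1.12 after merging within 5 kb). AKBA peaks covered 46.5% of the EN2 window. Only 2 of the 8791 tiles with a peak in either list were covered to at least that extent in the AKBA list, and 20 tiles reached the 25.8% of the DMSO list. The tiles are a fixed grid that can cut a group of peaks, whereas the windows were chosen for their genes. Ranks of these windows among tiles may therefore be too high. The AKBA peak from 155240787 to 155254934 measured 14148 bp, the 5th widest of its list, and overlapped 6 DMSO peaks. A further AKBA peak of 6405 bp, from 155258247 to 155264651, overlapped 3 more. The widest DMSO peak at EN2, from 155248707 to 155252464, measured 3758 bp. Nearly all DMSO bases at EN2 (97.2%) were AKBA bases too.

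EN1 (chromosome 2, 119580001 to 119626000) held 1.49 kb in 3 DMSO peaks and 2.06 kb in 2 AKBA peaks. The widest peaks measured 869 bp (119603091 to 119603959) and 1331 bp (119602714 to 119604044), and the first lay inside the second. This was the only overlap at EN1. A DMSO peak of 384 bp and an AKBA peak of 731 bp missed each other by 26 bp, and the DMSO peak of 232 bp lay 9614 bp from the nearest AKBA peak. The background here was the 8791 tiles with a peak in either list. The called share of the EN1 window was reached by 16.3% of these tiles in the DMSO list and by 22.9% in the AKBA list. In the other 8 marked windows at most 2.21% of these tiles in the DMSO list and 2.88% in the AKBA list did.

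GBX2, which opposes OTX2, also had a single AKBA peak over several DMSO peaks. Its window (chromosome 2, 237054001 to 237097000) held 6.26 kb in 5 DMSO peaks and 8.79 kb in 3 AKBA peaks. The AKBA peak from 237074676 to 237082257 measured 7582 bp and overlapped 3 DMSO peaks, of which the widest, from 237076492 to 237079034, measured 2543 bp. A DMSO peak of 421 bp and an AKBA peak of 243 bp at GBX2 had no counterpart.

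BARHL1 had the greatest share of AKBA bases that were also called in the DMSO list. Its window (chromosome 9, 135438001 to 135486000) held 10.3 kb in 5 DMSO peaks and 13.6 kb in 2 AKBA peaks, a ratio of 1.33, and 96.6% of the DMSO and 72.9% of the AKBA bases were in both lists. The AKBA peak from 135453625 to 135466409 measured 12785 bp, the 12th widest of its list. It overlapped 4 DMSO peaks that already covered 77.5% of it, the widest of them 4740 bp (135454000 to 135458739). The other overlap at BARHL1 was of 4 bp, between peaks of 305 and 807 bp near the window's lower edge. CFAP77 and DDX31 neighbour BARHL1, and the peaks were not divided among the genes.

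VAX1 had the greatest AKBA to DMSO ratio of bases with all peaks counted. Its window (chromosome 10, 118873001 to 118918000) held 4.92 kb in 3 DMSO peaks and 12.9 kb in 6 AKBA peaks, a ratio of 2.62. With peaks scored at least 3 it was 1.82, below OTX2 and GSC. The widest DMSO peak, 2938 bp from 118891650 to 118894587, overlapped 1 AKBA peak, 3203 bp wide. The widest AKBA peak, 4295 bp from 118895846 to 118900140, overlapped a single DMSO peak of 1777 bp. The other 4 AKBA peaks, all on the upper side, had no DMSO overlap, and their scores were at the 1.31, 7.78, 24.8 and 65.8 percentiles of the AKBA list. Inside the window the 2 AKBA peaks that overlapped DMSO peaks held 7.50 kb and the other 4 held 5.40 kb. The AKBA peak of 3738 bp from 118916543 to 118920280 crosses the window's edge, the only member peak to do so. Without VAX1 the ratio over the windows was 1.55 with peaks as called, and this ratio was not computed for merged peaks.

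GSC held the highest-scoring AKBA member peak. Its window (chromosome 14, 95214001 to 95257000) held 4.95 kb in 3 DMSO peaks and 6.59 kb in 6 AKBA peaks, a ratio of 1.33 (2.03 with peaks scored at least 3). The widest peaks lay almost on top of each other, 2682 bp in the DMSO list (95233797 to 95236478) and 2811 bp in the AKBA list (95233587 to 95236397), and both were in the top 1% of scores of their list, at the 99.3 and 99.4 percentiles. The AKBA peak of 430 bp from 95237502 to 95237931 had a score of 10.7, the 20th highest of its list, and overlapped a DMSO peak of 2051 bp at the 36.8 percentile. That DMSO peak was overlapped by 2 AKBA peaks. GSC-DT, a divergent noncoding gene, neighbours GSC.

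**Figure D3:**
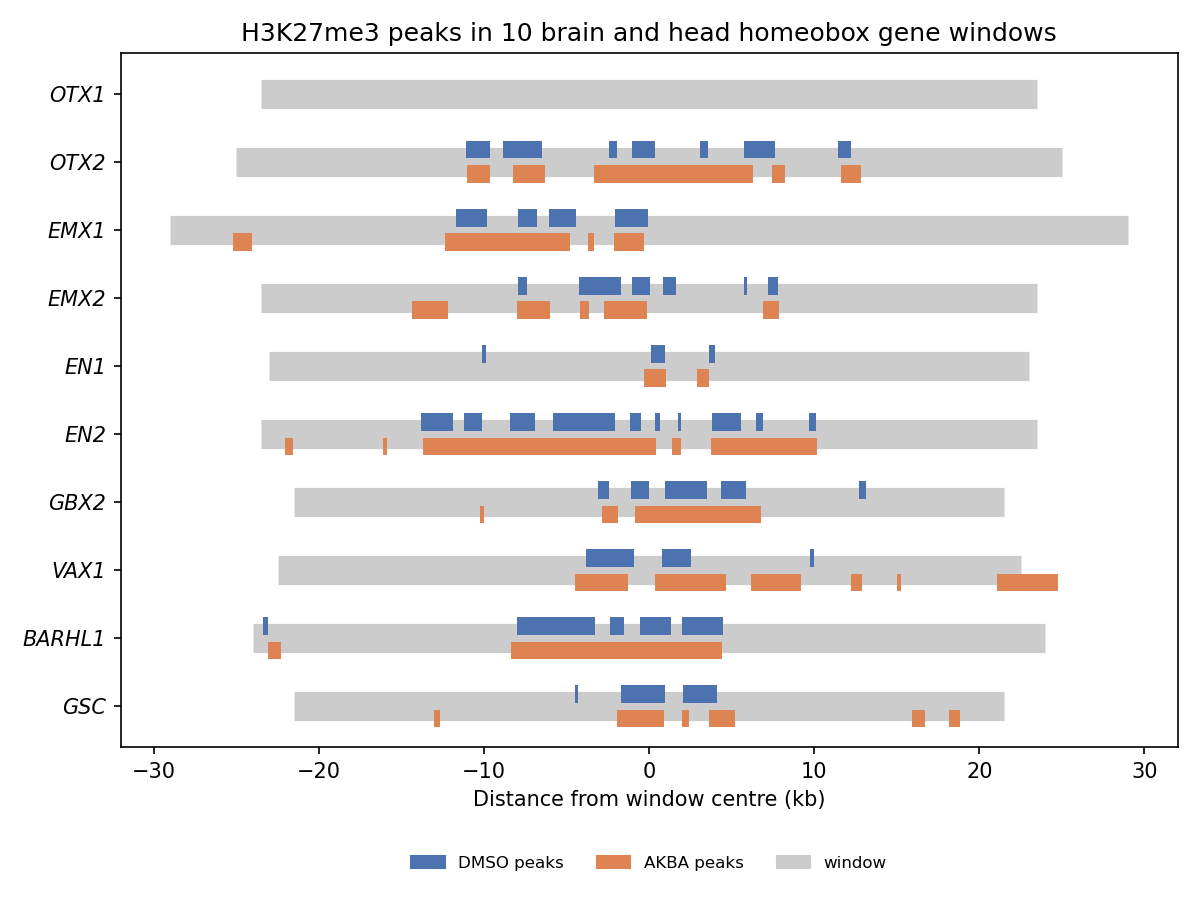
Position of each called peak (blue, DMSO; orange, AKBA) by distance from the window centre in kb, with 1 row for each gene and the window in grey. OTX1 is empty, and single AKBA peaks overlap 2 to 6 DMSO peaks at OTX2, EMX1, EMX2, EN2, GBX2 and BARHL1. The VAX1 row has 4 AKBA peaks to the right that overlap no DMSO peak.

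The map of peaks by distance shows the feature that most windows shared: 1 AKBA peak over several DMSO peaks. Of the 38 AKBA member peaks, 7 overlapped at least 2 DMSO peaks, against 4.43% of the whole AKBA list. They lay in 6 windows, overlapped 25 of the 46 DMSO member peaks and made up 60.7% of the AKBA bases. Of the 38, 6 measured at least 5 kb, against 1.84% of the list, and no DMSO member peak did, against 0.787%. Among all AKBA peaks of at least 5 kb, 64.9% overlapped at least 2 DMSO peaks, so bridging is usual for peaks of that width. The widest AKBA peak exceeded the widest DMSO peak in all 9 marked windows, from 1.01 times at EMX2 to 4.11 times at OTX2. It did so in 77.8% of tiles with peaks of both lists. The count of windows was 8 of 9 after short DMSO gaps were closed and DMSO peaks padded, as given next. It was 6 of 9 after merging within 5 kb. Closing and padding used only the smallest gap and narrowest width of the AKBA list, and did not match the other gaps and widths. In the reverse direction 3 DMSO member peaks (at OTX2, EMX2 and GSC) each overlapped 2 AKBA peaks, against 0.945% of the DMSO list with at least 2.

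The 18 gaps bridged by these 7 AKBA peaks ran from 646 to 2744 bp. No gap in the AKBA list was below 857 bp, whereas gaps in the DMSO list went down to 641 bp. Of the 18 bridged gaps, 6 were under 857 bp, among them the only gap bridged at EMX2, of 646 bp. The EMX2 peak began and ended inside the 2 DMSO peaks that it overlapped. The narrowest peaks of the lists also differed, 160 bp in the DMSO and 214 bp in the AKBA list. With DMSO gaps of 856 bp or less closed and 27 bp added to each side of DMSO peaks, the ratio of bases over the windows was 1.43, and the windows held 38 peaks of each list. After peaks of both lists within 5 kb were merged, it was 1.18, with 117 kb in the DMSO and 138 kb in the AKBA list. Under merging the EMX2 and EN1 windows had fewer AKBA than DMSO bases, with ratios of 0.963 and 0.936.

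Most DMSO member peaks were found again in the AKBA list. Of the 46, 39 overlapped an AKBA peak (84.8%, exact Clopper-Pearson 95% interval 71.1 to 93.7%, counting error only), against 54.5% of the whole DMSO list. Of the 38 AKBA member peaks, 24 overlapped a DMSO peak (63.2%, interval 46.0 to 78.2%), against 32.2% of the AKBA list. Neighbouring peaks of a window are not independent, so these intervals are too narrow. Width moved with sharing. All 25 DMSO member peaks of at least 1 kb were shared, as were 93.2% of such peaks in the list, and 17 of the 21 AKBA member peaks of that width, against 65.2%. With a reciprocal overlap of at least 50%, only 7 DMSO and 7 AKBA member peaks were shared, against 20.8% and 14% of the lists. In bases, 52.2 kb were called in both lists, or 85.3% of the DMSO and 52.2% of the AKBA bases of the windows, against 64.2% and 33.2% over the lists.

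The 7 DMSO member peaks without an AKBA overlap were narrow, from 160 to 762 bp with a median of 232 bp, and together covered 2.39 kb. They lay at EMX2 and EN1 (2 each) and at GBX2, VAX1 and GSC (1 each), and 4 of them were within 1 kb of an AKBA peak. The 14 AKBA member peaks without a DMSO overlap measured 243 to 3738 bp, with a median of 650 bp, and totalled 14.9 kb. Their median distance from the window centre was 14.2 kb, against 3.44 kb for the 24 shared AKBA peaks. Their median score stood at the 26.2 percentile of the AKBA list, against the 89.7 percentile for the shared ones. Scores of shared and unshared peaks were not compared over the whole list, so this contrast is not shown to be particular to these windows.

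**Figure D4:**
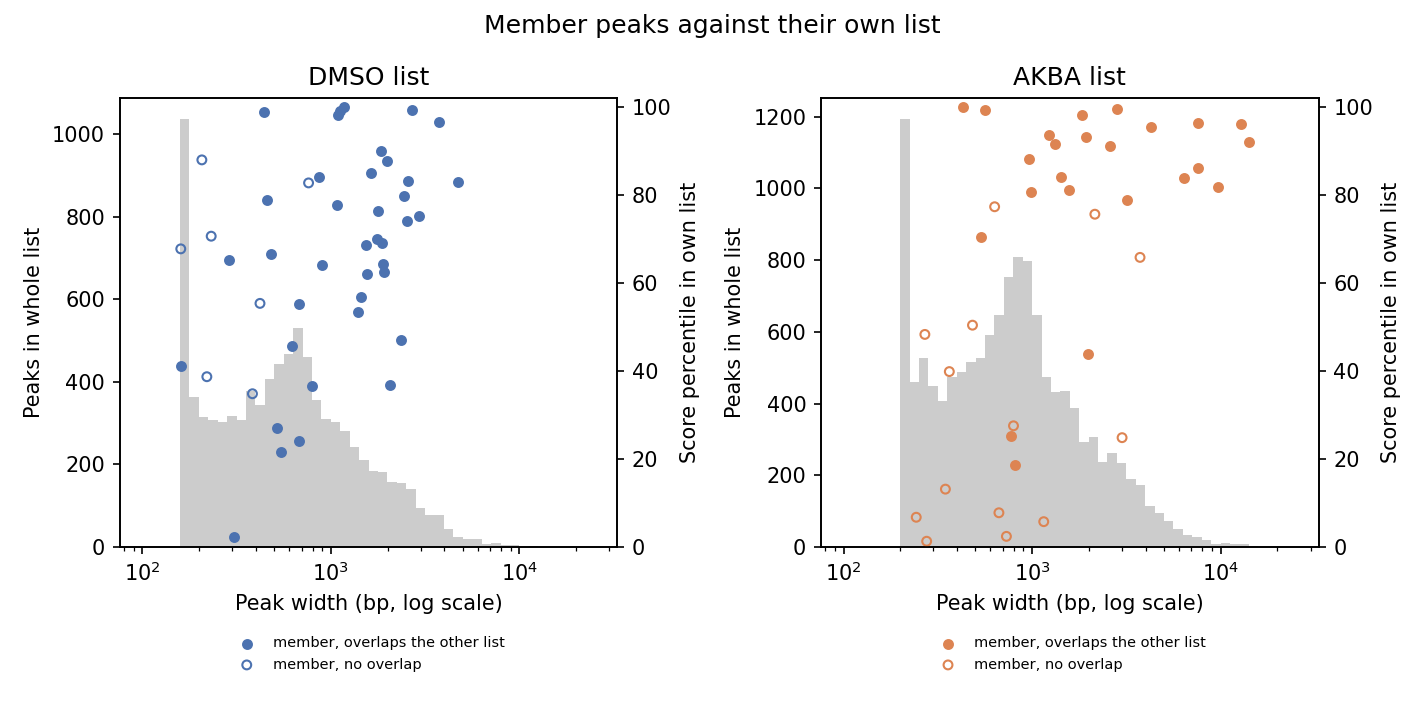
Member peaks by width (bp, log scale, horizontal) and by the percentile of the authors' score within their own list (right axis), over a histogram of all peak widths of the list (grey, left axis). Filled points overlap a peak of the other list and open points do not; all 7 open DMSO points are narrower than 1 kb, and the 6 AKBA points of at least 5 kb are filled.

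Member peaks were wider and scored higher than their lists. The median width was 1105 bp against 552.5 bp in the DMSO list and 1278 bp against 742 bp in the AKBA list. The authors' score was above its list's median in 35 of the 46 DMSO and 25 of the 38 AKBA member peaks. In the top score decile were 6 of the 46 DMSO and 12 of the 38 AKBA member peaks. The DMSO count was near the share that a decile holds by definition, and the AKBA count was above it. The scale of the score is not stated, so scores were not compared between lists.

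The mark was concentrated in the middle of the windows. Of the called bases in the windows, 87.6% in the DMSO list and 82.2% in the AKBA list lay within 10 kb of the window centre. That centre is itself a large part of windows of 43.0 to 58.0 kb, and its share of called bases was not computed for tiles. The windows are 35.2 to 41.1 kb longer than the RefSeq span of their genes, so the middle is where a centred gene would lie, although gene positions in hg19 were not read. In the 5 kb below the centre 47.1% of the bases of the 9 marked windows were called in the DMSO and 57.9% in the AKBA list, and in the 5 kb above it 36.2% and 56.4%. From 15 to 20 kb above the centre the shares were 0% and 3.79%.

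**Figure D5:**
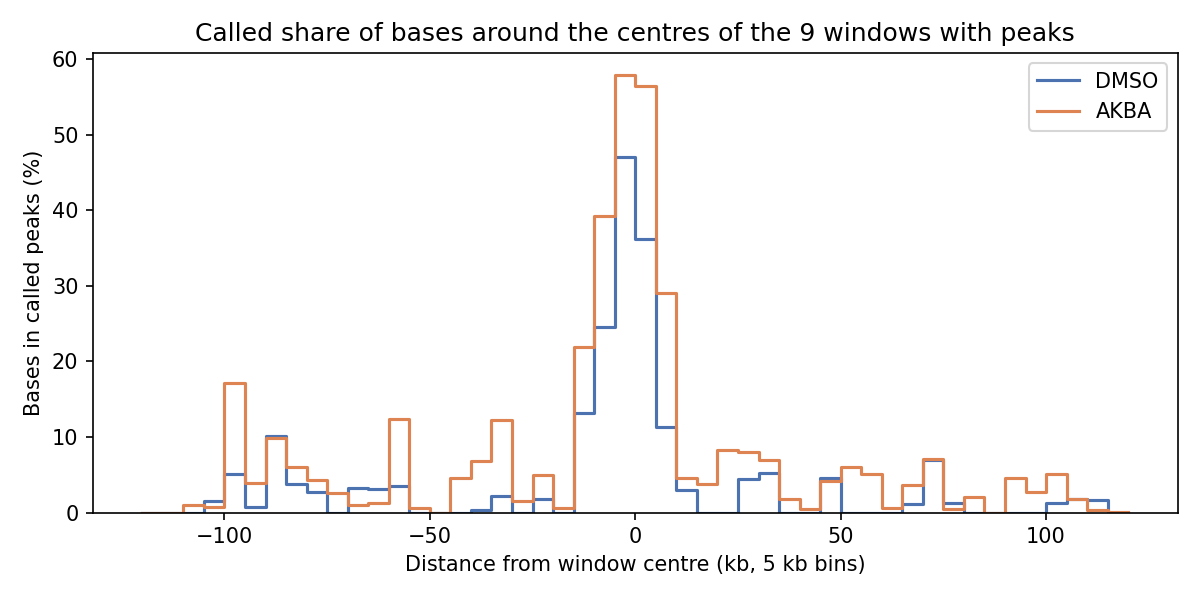
Share of bases in called peaks (percent) by distance from the window centre in 5 kb bins, pooled over the 9 marked windows and continued beyond their edges, for the DMSO (blue) and AKBA (orange) library. Both lines are highest in the 2 bins beside the centre, at 36.2% to 47.1% for DMSO and 56.4% to 57.9% for AKBA.

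Called bases were denser in the windows than around them. In both lists all 9 marked windows were more densely called than the 100 kb on each side. Of tiles with peaks of both lists, 81.6% were so in the DMSO and 81.4% in the AKBA list. On average 1.65% of the flanks was called in the DMSO list and 3.81% in the AKBA list, against 14.3% and 23.4% of the 9 windows. Of the 18 flanks, 11 had no DMSO base and 6 no AKBA base, and at EMX1 both flanks were empty in both lists. EN2 had the most heavily called surroundings, with 12.6 kb of DMSO and 19.9 kb of AKBA peaks in the lower flank. BARHL1 had 4.26 kb of DMSO and 14.6 kb of AKBA peaks in its lower flank.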

How the data were processed

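The data are 2 peak lists of H3K27me3 chromatin immunoprecipitation and sequencing. Per the submitters' processing notes the tools were BWA, STAR and MACS2, without versions, and the build hg19. The notes name no threshold and do not say how input or duplicate reads were used. The score that the authors deposited for each peak, on an unstated scale, was used only to rank and filter peaks within its list. The score minimum was the same number for both lists, so ratios under it carry that limit. Positions are 1-based; the deposited starts count from 0. The genes and windows were chosen with earlier results of these data known.

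Peaks overlapping a window by at least 1 bp were counted and their bases inside it summed with pandas 2.3.3, numpy 2.4.6 and scipy 1.17.1 under Python 3.11.15. Counts and bases were checked against bedtools 2.31.1 and overlap was tested on simulated data. All windows are described. Peaks were given by position for the widest of each list and window, for AKBA peaks over at least 2 DMSO peaks and for the highest score of each list, and further peaks were chosen after their values were seen. The background for shares and ratios was the 4288 tiles of 50 kb with peaks of both lists, or the part of them named. Ranks of the called share used the 8791 tiles with a peak in either list. The share of tiles without a peak used all 60573 tiles up to the last peak of each chromosome. The list fixed for other head homeobox genes was not analysed here, because no hg19 annotation was used. With 1 library per condition no test was possible, and depth is unknown. The alternatives were a score minimum, equal peak numbers, a minimum width, merging, DMSO joining and padding, other window sizes and other definitions of overlap.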

Additional observations from a re-analysis of the deposited data

How the results depend on the processing

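The direction of more AKBA than DMSO bases over the windows held under the alternatives, with ratios of 1.67 at a score of at least 3, 1.49 with peak numbers made equal, 1.76 with peaks of at least 1 kb, 1.18 with merging within 5 kb, 1.43 with DMSO peaks joined and padded, 1.53 with windows narrowed and 1.71 with windows widened by 10 kb, and 1.67 with whole peaks. With merging, most of the AKBA excess lay in the VAX1 window, which held 6.59 kb in the DMSO and 21.2 kb in the AKBA list. Of 71 ratios of single windows under alternatives, 5 reversed. They were EN1 with equal peak numbers (0.896) and with merging (0.936), EMX2 with merging (0.963), and GSC with peaks of at least 1 kb (0.926) and with narrowed windows (0.972). The cause was not tested. Member peaks numbered 35 DMSO and 24 AKBA at a score of at least 3, and 46 and 28 with equal peak numbers. With windows narrowed they numbered 44 and 29, and with windows widened 51 and 44. Peaks of at least 1 kb numbered 25 DMSO and 21 AKBA, and merged peaks 13 and 17. More DMSO than AKBA peaks (46 against 38) were thus counted under each of these settings except merging, which turned the surplus around. The surplus was 0 with DMSO peaks joined and padded (38 and 38). The widest AKBA peak exceeded the widest DMSO peak in 9 windows, in 8 with DMSO peaks joined and padded and in 6 with merging. Shared AKBA peaks were 78.6% with equal peak numbers and 79.3% in narrowed windows. Shared DMSO peaks were 100% at a width of at least 1 kb. At 50% reciprocal overlap the shares were 15.2% of DMSO and 18.4% of AKBA peaks. No paired analysis was possible because each condition has 1 library. OTX1 had no peak under these settings. Unknown depth limits every comparison.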

Other observations

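VAX1 and EMX2 lie on the same arm of chromosome 10, with 364 kb between their windows. That interval held 6.32 kb in 5 DMSO peaks and 12.4 kb in 7 AKBA peaks, or 1.74% and 3.40% of its length. The AKBA values include the peak that crosses the upper edge of the VAX1 window, with its bases past that edge. All of these bases lay within 100 kb of the VAX1 window, where the upper flank held the same 6.32 and 12.4 kb. The lower flank of EMX2 had none in either list. Apart from that crossing peak, the nearest AKBA peak above the VAX1 window began 3.36 kb from its upper edge. The nearest DMSO peak began 3.88 kb from that edge.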
